A study of Homo sapiens with 6 samples.

Results

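The transcripts of the NFAT transcription factors, of calcineurin and of the RCAN regulators of calcineurin were examined in PD-L1-knockout Hep3B cells with and without nuclear PD-L1. The members were the rows of the deposited table named NFATC1, NFATC2, NFATC3, NFATC4, NFAT5, PPP3CA, PPP3CB, PPP3R1, RCAN1 and RCAN3, 10 of 27009 genes. Hep3B is a human liver cancer line. Every one of the 6 libraries was labelled as Hep3B cells with a knockout of their own PD-L1 gene. The 3 vector libraries were from such cells carrying the empty vector, and the 3 nPD-L1 libraries were from such cells overexpressing nPD-L1, a mutated PD-L1 that accumulates in the nucleus. nPD-L1 was delivered by lentivirus in a pCDH-CMV-Puro vector, which carries a viral promoter, and stable cells were selected. The study describes the samples sequenced in each group as independent, without saying whether they were separate cultures. Where they were not, p values measure only the spread between these libraries, which may be technical. The study describes no separately made lines within a group for the sequencing. Differences that arose in making the stable cells therefore cannot be told apart from those of nPD-L1.

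Calcineurin is the protein phosphatase that responds to calcium and calmodulin. It consists of a catalytic A subunit (PPP3CA, PPP3CB or PPP3CC) and a regulatory B subunit (PPP3R1). When cytosolic calcium rises, calcineurin removes phosphates from NFATC1 to NFATC4, which then enter the nucleus and bind DNA, often beside AP-1 factors. NFAT5 shares the DNA-binding domain, but responds to osmotic stress and lacks the calcineurin docking region. RCAN1 and RCAN3 bind calcineurin and restrain it, and transcription of RCAN1 from an internal start is itself a classical output of calcineurin and NFAT. The pathway is best known from T cells, heart muscle and osteoclasts.

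Values are scaled reads, the reads counted on a gene divided by a size factor of its library, and they were tested on the log2(value + 1) scale, which understates changes of genes with low values. The libraries held 17427519 to 22253295 reads on genes. Fold changes compare nPD-L1 with vector, standard errors (SE) and 95% confidence intervals are those of limma, and a gene was called when its Benjamini-Hochberg adjusted p over all 15076 genes tested was under 0.05. CD274, which encodes PD-L1, was at 28.3, 38.4 and 47.8 scaled reads in vector and at 16.8, 19.2 and 30.9 in nPD-L1. The target was thus not higher in the group that is labelled as overexpressing it (log2 fold change -0.76, SE 0.34, limma adjusted p = 0.338), and directions here rest on the labels. The study describes the construct as the PD-L1 sequence with a short run of residues mutated. The sources used here do not say whether its transcripts were counted on CD274, and this was not tested. Vector replicate 2 stood apart from the other vector libraries by gene length, and values without it are given for the members tested. Of 9 hepatocyte markers, 3 reached the level needed for a test. Among the defining markers, ALB, TTR, APOA1, APOB and TF were between 0 and 2.89 scaled reads in every library, and SERPINA1 was between 7.91 and 41.4. AFP, also among the 9, had no row of that name in the deposited values. FGB, a fibrinogen chain made by liver, was between 962 and 1540. The near absence of the main plasma protein transcripts goes against a label of liver cells, and the identity of the line was not tested. HNF4A, a transcription factor of hepatocytes, was at 6.24 to 19.2 in vector and 33.8 to 51.6 in nPD-L1 (log2 fold change 1.91, adjusted p = 0.0232, limma), and without nPD-L1 replicate 1, 2 or 3 its adjusted p was 0.137, 0.116 or 0.0611. The leukocyte genes PTPRC, CD4 and LCK were between 0 and 4.20, and CD8A was between 7.56 and 23.3. Of the endothelial and fibroblast genes, PECAM1, VWF and PDGFRB were between 0 and 8.31, while COL1A1 rose from 65.3 ± 16.5 to 466 ± 21.1 (SD, n = 3 each, log2 fold change 2.84, adjusted p = 7.99e-06, limma).

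The promoter windows of the genes whose libraries did not overlap between groups are printed here, because NFATC1, NFATC2 and RCAN1 are the members that the results turn on. They are 300-base windows of RefSeq (GRCh38.p14), from 250 bases before to 50 bases after an annotated start, on the strand of the gene. Capitals mark GGAAA, the core bound by NFAT, on either strand (TTTCC on the printed strand), and TGANTCA, the palindromic core of an AP-1 site, which reads the same on both strands apart from N. In the windows printed, no match of the GGAAA core overlapped a TGANTCA. Of the 6 RCAN1 windows, the most upstream and the internal window with the most GGAAA are shown. RefSeq windows were matched for 7 of the 10 members, 18 windows in all.
NFATC1, upstream start, chr18:79395680-79395979, + strand: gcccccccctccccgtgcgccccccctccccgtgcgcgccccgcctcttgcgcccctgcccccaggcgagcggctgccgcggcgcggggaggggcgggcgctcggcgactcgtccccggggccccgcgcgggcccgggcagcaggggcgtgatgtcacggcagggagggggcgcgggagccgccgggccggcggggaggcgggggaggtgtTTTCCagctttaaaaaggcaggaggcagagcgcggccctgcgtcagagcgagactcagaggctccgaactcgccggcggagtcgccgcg
NFATC1, downstream start, chr18:79400049-79400348, + strand: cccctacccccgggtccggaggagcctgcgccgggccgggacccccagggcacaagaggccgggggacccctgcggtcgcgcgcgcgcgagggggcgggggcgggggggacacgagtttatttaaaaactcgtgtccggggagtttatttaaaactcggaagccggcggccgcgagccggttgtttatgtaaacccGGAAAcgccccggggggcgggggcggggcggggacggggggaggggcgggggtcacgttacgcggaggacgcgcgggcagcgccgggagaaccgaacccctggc
NFATC2, upstream start, chr20:51562790-51563089, - strand: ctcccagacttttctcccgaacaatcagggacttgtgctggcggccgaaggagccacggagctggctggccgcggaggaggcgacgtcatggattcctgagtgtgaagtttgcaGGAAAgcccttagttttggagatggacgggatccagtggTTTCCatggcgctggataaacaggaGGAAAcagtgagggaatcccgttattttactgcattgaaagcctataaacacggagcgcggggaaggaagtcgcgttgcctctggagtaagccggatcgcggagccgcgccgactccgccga
NFATC2, downstream start, chr20:51542670-51542969, - strand: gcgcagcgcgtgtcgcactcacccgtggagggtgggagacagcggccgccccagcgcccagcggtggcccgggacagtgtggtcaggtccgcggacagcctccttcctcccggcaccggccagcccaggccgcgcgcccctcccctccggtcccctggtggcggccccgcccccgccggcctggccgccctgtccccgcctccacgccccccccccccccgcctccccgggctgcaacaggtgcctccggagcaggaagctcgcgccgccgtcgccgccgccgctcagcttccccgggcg
RCAN1, most upstream start, chr21:34615064-34615363, - strand: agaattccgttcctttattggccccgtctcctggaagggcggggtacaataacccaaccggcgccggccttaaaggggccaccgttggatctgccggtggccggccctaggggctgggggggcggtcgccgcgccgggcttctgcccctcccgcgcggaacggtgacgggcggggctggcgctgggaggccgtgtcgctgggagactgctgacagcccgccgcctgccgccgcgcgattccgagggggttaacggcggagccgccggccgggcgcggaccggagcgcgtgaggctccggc
RCAN1, an internal start, chr21:34526773-34527072, - strand: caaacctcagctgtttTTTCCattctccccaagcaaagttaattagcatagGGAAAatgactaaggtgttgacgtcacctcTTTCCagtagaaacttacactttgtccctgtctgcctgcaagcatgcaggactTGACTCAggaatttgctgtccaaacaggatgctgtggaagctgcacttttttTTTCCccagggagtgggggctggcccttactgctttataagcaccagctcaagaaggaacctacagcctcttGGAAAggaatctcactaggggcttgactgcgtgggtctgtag

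The windows differed in how many cores they held. GGAAA occurred 3 times at the upstream start of NFATC2 and was not found at its downstream start. Each NFATC1 window held 1 match. The most upstream RCAN1 window held none, while the internal RCAN1 window shown held 5, together with 1 TGANTCA. Of the 18 windows of the members, 11 held GGAAA and 3 held TGANTCA. Among all 35116 promoter windows of the same length, 61.2% held at least 1 GGAAA, 9.94% held 3 or more, 0.74% held 5 or more and 7.71% held TGANTCA. The internal RCAN1 window was picked for its count, so its 5 matches are a description. A match is a string of letters in a window, not a measured site. The deposited value of a gene sums reads over all of its transcripts, so the starts could not be told apart in these data.

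NFATC1 and NFATC2 rose in the nPD-L1 libraries, by 0.93 and 0.97 on the log2 scale, and RCAN1 was lower in all 3 nPD-L1 libraries without passing the test. The calcineurin subunits, RCAN3, NFATC3 and NFAT5 did not pass the test, and NFATC4 was too low to be tested. Of the 9 members tested, 2 were called, both higher (22.2%), beside 4.96% of all genes tested (4.04% higher and 0.922% lower). At an unadjusted p under 0.05, 3 members passed, beside 14.2% of all genes. On recovered reads, edgeR called 2 members, beside 5.04% of all genes, and DESeq2 called 3, beside 6.37%, the third being RCAN1. The median log2 fold change of the 9 was 0.16, against -0.02 over all genes tested, and 8 were positive. The groups did not overlap for 3 members, higher for NFATC1 and NFATC2 and lower for RCAN1, beside 12.0% of all genes tested that did not overlap upward and 8.54% downward. For 7 members the groups overlapped. In such bulk libraries, less RNA of a gene per cell and fewer cells with that RNA cannot be told apart.

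**Figure D1:**
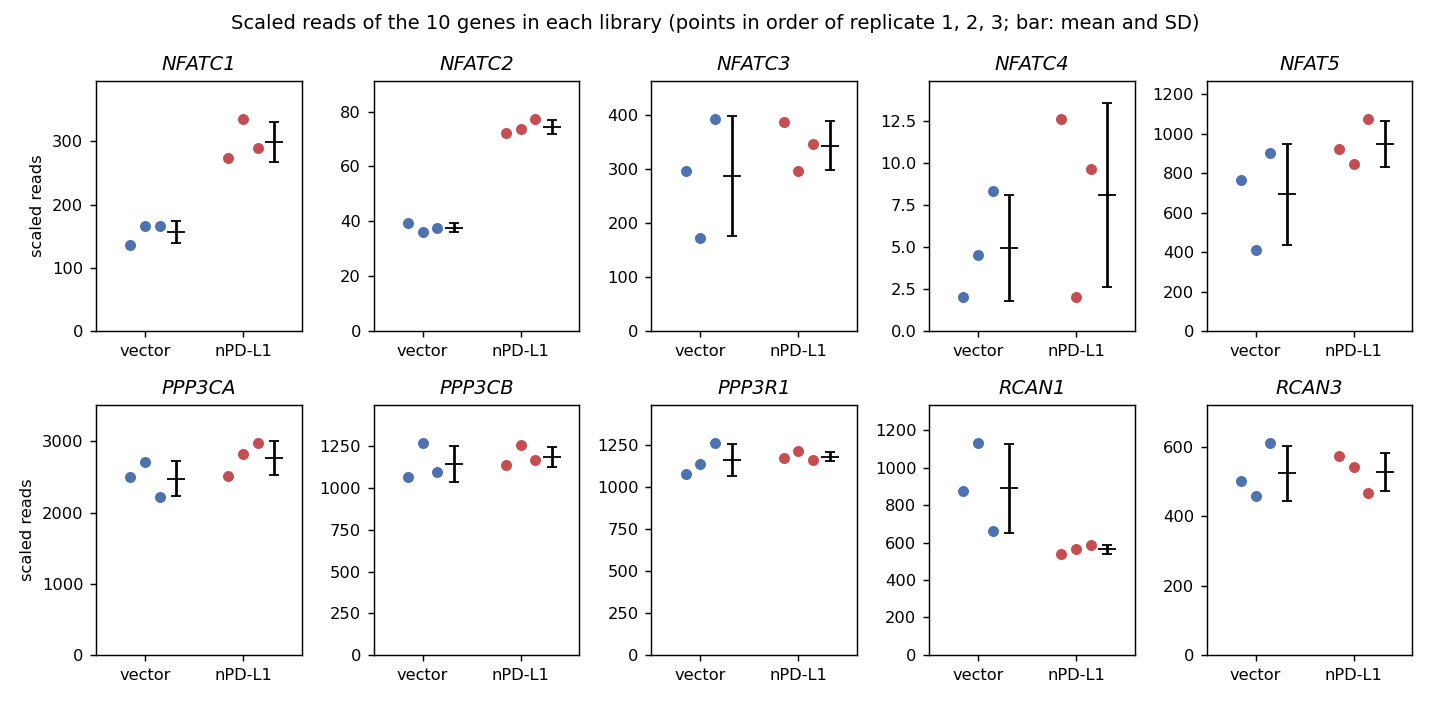
Scaled reads (y axis, from 0, a separate scale per gene) of the 10 genes in the 3 vector and 3 nPD-L1 libraries (x axis), 1 point per library in order of replicate, with bars for the mean and SD. The groups do not overlap for NFATC1, NFATC2 and RCAN1, and vector replicate 2 lies lowest for NFATC3 and NFAT5.

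NFATC1 (ENSG00000131196), on the + strand of chromosome 18 of GRCh38 at chr18:79395856-79529325, encodes an NFAT factor known from osteoclasts, heart valves and activated lymphocytes. In the order of the replicate numbers, it was at 136, 167 and 166 scaled reads in the vector libraries and at 274, 335 and 290 in the nPD-L1 libraries. All 3 nPD-L1 libraries lay above all 3 vector libraries. The mean was 157 ± 17.6 in vector and 300 ± 31.5 in nPD-L1 (SD, n = 3 each). The log2 fold change was 0.93 (SE 0.15, 95% confidence interval 0.59 to 1.27), with an adjusted p of 0.00435 (limma). The interval corresponds to 1.51-fold to 2.42-fold. The libraries held 135 to 160 NFATC1 reads in vector and 301 to 331 in nPD-L1. The exact Poisson 95% intervals of single libraries, which cover counting error only, ended at 187 in vector and began at 268 in nPD-L1. These reads are not scaled, and nPD-L1 replicate 1 was the deepest library (22253295 reads), so the gap also holds a difference in depth. The call was kept when any library was left out.

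NFATC2 (ENSG00000101096), on the - strand of chromosome 20 at chr20:51386957-51562831, encodes the NFAT factor that is most abundant in resting T cells. It was at 39.4, 36.1 and 37.4 scaled reads in the vector libraries and at 72.3, 73.8 and 77.2 in the nPD-L1 libraries. The 3 values of each group lay close together, with a wide gap between the groups. The mean was 37.6 ± 1.62 in vector and 74.4 ± 2.50 in nPD-L1 (SD, n = 3 each). The log2 fold change was 0.97 (SE 0.21, 95% confidence interval 0.49 to 1.44), with an adjusted p of 0.0249 (limma). These values rested on 32 to 39 reads per vector library and 73 to 86 reads per nPD-L1 library, and the exact Poisson 95% interval of a vector library with 36 reads ran from 25.2 to 49.8. The spread between libraries was thus smaller than the counting interval of a single library. The call was lost without vector replicate 1 (adjusted p = 0.078) and without nPD-L1 replicate 1, 2 or 3 (0.0914, 0.12 and 0.126, limma). Without nPD-L1 replicate 3 the log2 fold change was 0.94.

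NFATC3 (ENSG00000072736, chr16:68084751-68229259, + strand), a widely expressed NFAT factor, was at 297, 172 and 392 scaled reads in vector and 387, 296 and 346 in nPD-L1. The groups overlapped, and vector replicate 2 was the lowest library. Its log2 fold change was 0.33 (SE 0.26, 95% confidence interval -0.24 to 0.89, adjusted p = 0.636, limma), and it was 0.00034 without vector replicate 2 and 0.59 without vector replicate 3 (adjusted p = 0.174). Exons of other genes cover part of NFATC3, among them the antisense gene AC020978.5 over 31.8% of its exon bases. The library kit did not mark strand, so reads of the overlapping genes could not be told apart. AC020978.5 had no row in the deposited values. AC020978.7, ESRP2 and AC130462.1, which also overlap NFATC3, reached at most 5.79 scaled reads. Other genes also cover part of PPP3R1 (AC017083.2, 20.8%, and AC017083.3, 13.7%), RCAN3 (AL445686.2, 15.2%) and NFAT5 (AC012321.1, 9.68%).

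NFATC4 (ENSG00000100968, chr14:24365673-24379604, + strand), known from heart and nervous system, was at 2.02, 4.52 and 8.31 scaled reads in vector and 12.6, 2.02 and 9.65 in nPD-L1. The groups overlapped, and a library held between 2 and 15 reads of it. A difference in NFATC4 was not detectable at this depth.

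NFAT5 (ENSG00000102908, chr16:69565094-69704666, + strand), the factor of the osmotic stress response, was at 767, 410 and 903 scaled reads in vector and 923, 848 and 1074 in nPD-L1. Vector replicate 2 was again the lowest library, and vector replicate 3 lay above nPD-L1 replicate 2. The log2 fold change was 0.52 (SE 0.24, 95% confidence interval -0.02 to 1.06, adjusted p = 0.372, limma), and it was 0.18 without vector replicate 2 (adjusted p = 0.504).

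Vector replicate 2 also showed a dependence on gene length, which was smaller than its NFATC3 and NFAT5 differences. The cause of these low values was not tested. With the length trend removed, the log2 fold change between the groups was 0.37 for NFAT5 and 0.22 for NFATC3. Without vector replicate 2 it was 0.18 and 0.00034. Compared with the mean of vector replicates 1 and 3, vector replicate 2 was higher by a median of 0.26 on the log2 scale in the 3016 genes with the shortest exon length (59 to 2384 bases), and it was lower, at -0.21, in the 3015 genes with the longest (7911 to 205012 bases). NFAT5, with 16401 exon bases, differed by -1.02 in that library, and NFATC3, with 8806, differed by -0.99. Only 3.66% and 3.95% of the genes tested lay lower. NFATC1 and NFATC2, which are of similar length to NFATC3, differed by 0.15 and -0.08. RCAN1, with 6990 exon bases, was higher in vector replicate 2 by 0.57 (percentile 91.1). Without vector replicate 2, the log2 fold change between the groups was 0.98 for NFATC1 and 0.94 for NFATC2, both still called. It was 0.23 for PPP3CA, 0.13 for PPP3CB, 0.02 for PPP3R1 and -0.08 for RCAN3, none of them called.

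**Figure D2:**
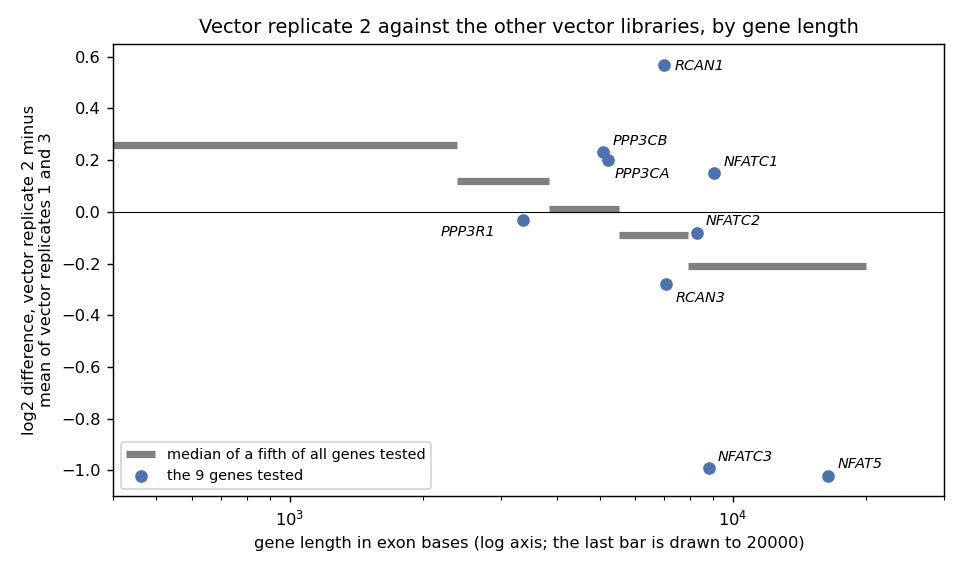
Log2 difference of vector replicate 2 from the mean of vector replicates 1 and 3 (y axis) against gene length in exon bases (x axis, log scale), with points for the 9 members tested and grey bars for the median of each of 5 length classes of all genes tested. The bars descend from 0.26 to -0.21, while NFATC3 and NFAT5 lie near -1 and RCAN1 lies at 0.57.

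The catalytic and regulatory subunits of calcineurin showed no difference that passed the test. PPP3CA (ENSG00000138814, chr4:101023409-101348278, - strand), the alpha catalytic subunit, was at 2498, 2712 and 2221 scaled reads in vector and 2509, 2818 and 2979 in nPD-L1. The groups overlapped, since vector replicate 2 lay above nPD-L1 replicate 1. Its log2 fold change was 0.16 (SE 0.11, 95% confidence interval -0.08 to 0.41, adjusted p = 0.592, limma). PPP3CB (ENSG00000107758, chr10:73436428-73496024, - strand), the beta catalytic subunit, was at 1067, 1271 and 1095 in vector and 1139, 1257 and 1167 in nPD-L1. The highest of the 6 values was a vector library, and the log2 fold change was 0.06 (95% confidence interval -0.18 to 0.29, adjusted p = 0.853, limma). PPP3R1 (ENSG00000221823, chr2:68178857-68256237, - strand), the regulatory B subunit that binds calcium, was at 1074, 1138 and 1262 in vector and 1170, 1212 and 1159 in nPD-L1. The nPD-L1 values lay within the range of the vector values, and the log2 fold change was 0.03 (95% confidence interval -0.19 to 0.25, adjusted p = 0.921, limma). The upper ends of the intervals correspond to 1.33-fold for PPP3CA, 1.22-fold for PPP3CB and 1.19-fold for PPP3R1. PPP3R1 was at -0.02 under upper-quartile scaling, which shifted the median of all genes by -0.051, and PPP3CB was at -0.0036 with the length trend removed, which shifted it by -0.048, so no direction is given for either gene.

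The summed level of the catalytic subunits PPP3CA and PPP3CB was 689, 770 and 641 scaled reads per kb of exon in vector and 705, 787 and 801 in nPD-L1. The groups overlapped, with a difference of 0.13 on the log2 scale (two-sided exact permutation test, p = 0.2, and 0.1 is the smallest p that 3 against 3 libraries can give). PPP3CA made up 66.5% to 69.6% of this sum in vector and 68.3% to 71.4% in nPD-L1. The sum leaves out the catalytic subunit PPP3CC, which is not a member.

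RCAN1 (ENSG00000159200), on the - strand of chromosome 21 at chr21:34513142-34615142, encodes the regulator of calcineurin that is also called calcipressin. It was at 878, 1133 and 660 scaled reads in the vector libraries and at 537, 565 and 589 in the nPD-L1 libraries. The groups did not overlap, but vector replicate 3 came close to the nPD-L1 libraries, and the vector libraries spread widely, with a mean of 890 ± 237 against 564 ± 26.2 in nPD-L1 (SD, n = 3 each). The log2 fold change was -0.62 (SE 0.17), with a 95% confidence interval of 0.499-fold to 0.844-fold, and the adjusted p of 0.073 missed the threshold (limma, unadjusted p = 0.00419). Without vector replicate 3 it was called, at -0.82 (adjusted p = 0.00309), and without vector replicate 2 it was -0.43 (adjusted p = 0.0524, limma). Without vector replicate 1 the adjusted p was 0.247, and without nPD-L1 replicate 1, 2 or 3 it was 0.253, 0.208 or 0.206 (limma). The internal RCAN1 start printed above holds 5 GGAAA cores, but the values do not separate it from the other RCAN1 starts.

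RCAN3 (ENSG00000117602, chr1:24502351-24541040, + strand), a related regulator of calcineurin, was at 502, 457 and 611 scaled reads in vector and 572, 542 and 468 in nPD-L1. The nPD-L1 values lay within the vector range. The log2 fold change was 0.02 (SE 0.14, 95% confidence interval -0.29 to 0.32, adjusted p = 0.972, limma), and no direction is given, since the shift of all genes under upper-quartile scaling (-0.051) is larger than this difference.

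**Figure D3:**
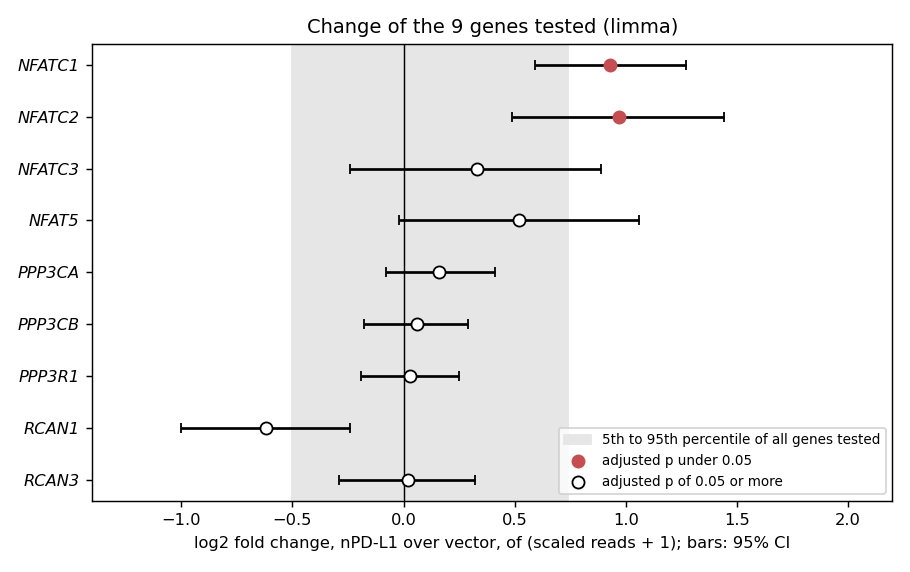
Log2 fold change of scaled reads + 1, nPD-L1 over vector (x axis), of the 9 members tested (y axis), with 95% confidence intervals from limma. Filled points have an adjusted p under 0.05 (NFATC1 and NFATC2), and the grey band spans the 5th to the 95th percentile of all genes tested (-0.50 to 0.74).

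Per length, the transcripts of the phosphatase subunits PPP3CA, PPP3CB and PPP3R1 were far more abundant than the transcripts of the factors that calcineurin acts on. Levels are scaled reads per kb of exon, taking all annotated exon bases of a gene. The catalytic subunit PPP3CC, which is not a member and not in the order below, was at 96.4 in vector and 99.2 in nPD-L1. In vector, the order was PPP3CA (475 ± 47.2, SD, n = 3), PPP3R1 (344 ± 28.4), PPP3CB (225 ± 21.7), RCAN1 (127 ± 33.9), RCAN3 (74.0 ± 11.2), NFAT5 (42.3 ± 15.5), NFATC3 (32.6 ± 12.5), NFATC1 (17.3 ± 1.94), NFATC2 (4.54 ± 0.196) and NFATC4 (0.587 ± 0.376). NFAT5 and NFATC3 were the neighbours in this order whose libraries overlapped. In nPD-L1, the order of the means was the same. There NFATC1 reached 33.1 ± 3.47 and overlapped NFATC3 at 39.0 ± 5.13, whereas in vector the highest NFATC1 library (18.4) lay below the lowest NFATC3 library (19.5). RCAN1 (76.8 to 84.3) overlapped RCAN3 (66.1 to 80.9) in nPD-L1 but not in vector, where RCAN1 was between 94.4 and 162 and RCAN3 between 64.6 and 86.3.

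**Figure D4:**
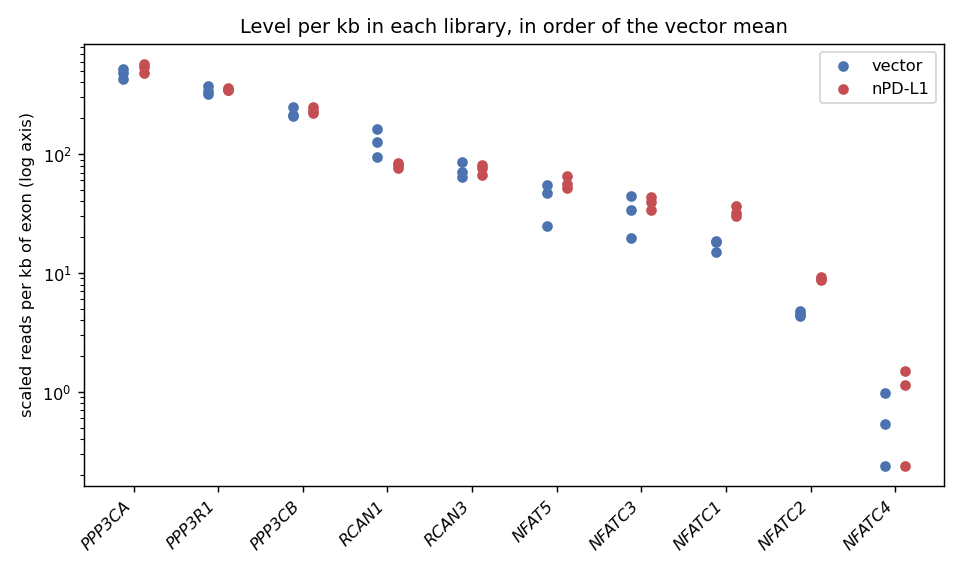
Scaled reads per kb of exon (y axis, log scale) of the 10 members in order of the vector mean (x axis), 1 point per library, vector in blue and nPD-L1 in red. PPP3CA is highest (475 in vector) and NFATC4 lowest (0.587), and the NFATC1 and NFATC2 points separate by group.

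The calcium-regulated factors NFATC1 to NFATC4 together were at 53.7, 42.8 and 68.3 scaled reads per kb in vector and 84.3, 79.7 and 81.8 in nPD-L1. The groups did not overlap (difference 0.60 on the log2 scale, two-sided exact permutation p = 0.1, the smallest possible). NFATC1 and NFATC2 made up 33.4% to 53.2% of the sum in vector and 46.2% to 57.5% in nPD-L1, and vector replicate 2, where NFATC3 was low, gave the upper end of the vector range. The sum of NFATC1 and NFATC2 alone was 19.8, 22.8 and 22.9 in vector and 38.9, 45.8 and 41.3 in nPD-L1 (difference 0.95). NFATC1 and NFATC2 are the members called as higher, so the separation of their sum follows from their own values and adds no support.

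The genes whose profile over the 6 libraries was most like that of each called member were found by the root mean square distance between centred log2 values, restricted to genes with a mean of 100 or more. For NFATC1 these were JDP2 (distance 0.066), CMTM3 (0.104) and SOX13 (0.105), of 10724 genes compared. JDP2, a dimerization partner of JUN, went from a mean of 211 to 395 scaled reads. For NFATC2 they were FOXA1 (0.044), C3orf52 (0.055) and LRCH1 (0.057), of 10725. FOXA1, a pioneer factor of liver and other endoderm, went from 252 to 500. The distances rest on 6 libraries in 2 groups and carry no test.

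The other genes of the pathway were taken in 7 lists by role, with 95 genes tested in all. 10 of them rose and 1 fell, beside 4.04% of all genes tested that rose and 0.922% that fell. The calls lay among NFAT partners, other calcineurin substrates and NFAT targets, with 1 more among the genes for calcium release and entry, while the lists had been written with earlier results of these data known. Among calcineurin partners (calmodulins, anchors, immunophilins and the like), limma called 0 of 11 tested, none had an unadjusted p under 0.05, edgeR and DESeq2 on recovered reads also called 0, and the median log2 fold change was -0.07. This list holds PPP3CC, the remaining catalytic subunit, which was at 266, 263 and 309 scaled reads in vector and 266, 299 and 297 in nPD-L1. Among the kinases that rephosphorylate NFAT and the proteins that retain it in the cytosol, limma called 0 of 17, with 4 at an unadjusted p under 0.05, edgeR and DESeq2 called 0, and the median was 0.05.

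Among the genes for calcium release and entry, 1 of 24 tested was called, beside 4.96% of all genes tested. ORAI2, a subunit of store-operated calcium channels, was at 933, 923 and 937 scaled reads in vector and 1449, 1549 and 1374 in nPD-L1. It rose by 0.64 on the log2 scale (SE 0.10, adjusted p = 0.00236, limma). Its groups did not overlap, beside 12.0% of all genes tested that did not overlap upward. The list had a median of 0.05, and its other members, among them the sensor STIM1 (log2 fold change 0.05) and the channel subunit ORAI1 (-0.27), did not pass the test. STIM1 and ORAI1 were chosen for their role after their values were seen.

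Among the partners that bind DNA or chromatin with NFAT, 3 of 13 tested were called, all higher, beside 4.04% of all genes tested. The median was 0.36, against -0.02 over all genes tested. JUNB, an AP-1 subunit, rose from 660 ± 106 to 16200 ± 1811 scaled reads (log2 fold change 4.62, adjusted p = 2.73e-08, limma). JUN, another AP-1 subunit, rose by 1.82 (adjusted p = 8.77e-05), and MEF2D, a partner of NFAT in muscle, by 0.54 (adjusted p = 0.00489, limma). FOS did not pass the test, at 91.9, 143 and 61.3 in vector and 90.8, 134 and 77.2 in nPD-L1. Nor did the AP-1 subunits JUND (log2 fold change 0.17), FOSL1 (-0.31) and FOSL2 (-0.11). Among other substrates of calcineurin, 2 of 10 were called, both higher, beside 4.04% of all genes tested, with a median of 0.09. TFEB, the factor of lysosome genes that calcineurin dephosphorylates, rose from 45.9 ± 6.72 to 208 ± 19.3 (log2 fold change 2.16, adjusted p = 6.42e-05, limma). FOXO1, a factor restrained by insulin signalling, rose by 1.66 (adjusted p = 0.000118, limma).

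Among genes known as NFAT targets, 5 of 12 tested were called, 4 higher and 1 lower, beside 4.96% of all genes tested. The median was 0.29, against -0.02 over all genes tested. The list was written with earlier results of these data known, so its share of calls is a description. The other targets tested did not pass: TNF (log2 fold change 0.68), NR4A1 (0.39), SPP1 (0.19), CSF2 (0.12), MYC (-0.01), CDK4 (-0.23) and CXCL8 (-0.33). EGR2, a zinc-finger factor induced in activated T cells, rose from 16.2 ± 2.41 to 117 ± 18.5 scaled reads (log2 fold change 2.77, adjusted p = 8.24e-05, limma). F3, tissue factor, rose by 2.22 (adjusted p = 8.09e-05), and VEGFA, the vascular growth factor, by 1.29 (adjusted p = 0.00023, limma). PTGS2, the inducible cyclooxygenase, was at 6389, 7498 and 4397 in vector and 2298, 3476 and 3402 in nPD-L1, and fell by 0.98 on the log2 scale (adjusted p = 0.0177, limma). The PTGS2 call was lost without vector replicate 1 (adjusted p = 0.102), vector replicate 2 (0.212), nPD-L1 replicate 1 (0.105) or nPD-L1 replicate 3 (0.0552). The remaining call, NR4A3, rose by 0.89 (adjusted p = 0.0116) and was lost without vector replicate 1 (0.0646), nPD-L1 replicate 2 (0.0759) or nPD-L1 replicate 3 (0.0868, limma). RCAN1, itself a classical target, was a member and was not counted in this list. Many genes of this list also answer to other factors, and targets moved in both directions. Among the targets of NFAT5, limma called 0 of 8, with 1 at an unadjusted p under 0.05, edgeR called 0, DESeq2 called 1, and the median was -0.07.

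**Figure D5:**
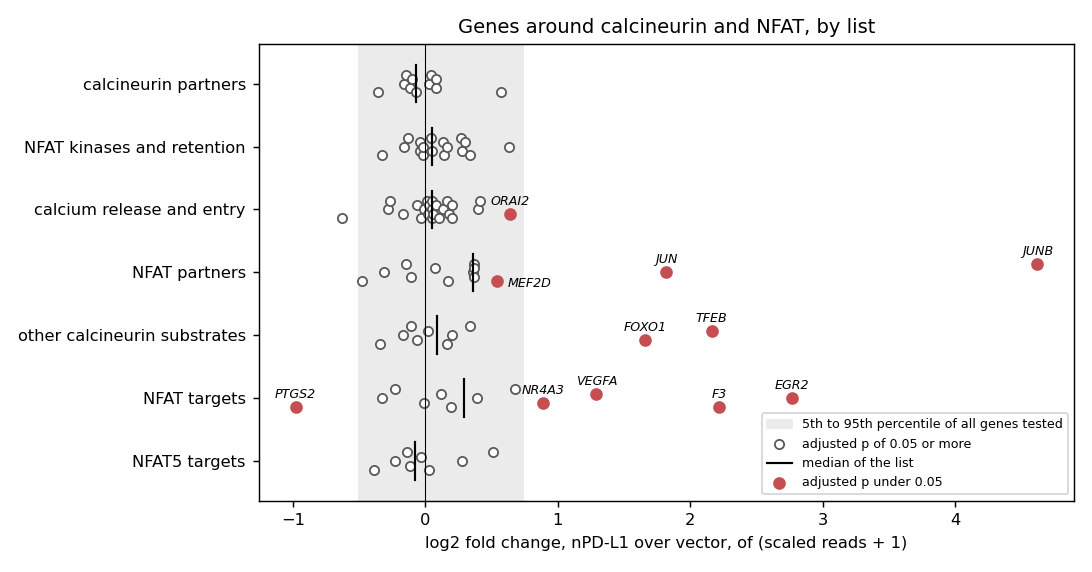
Log2 fold change of scaled reads + 1, nPD-L1 over vector (x axis), of the tested genes of 7 lists around calcineurin and NFAT (y axis), 1 point per gene, filled and named at an adjusted p under 0.05, with a bar for each list's median and a grey band for the 5th to the 95th percentile of all genes tested. The 11 named genes lie in 4 of the 7 lists, from PTGS2 at -0.98 to JUNB at 4.62.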

How the data were processed

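RNA sequencing was done by a company on total RNA of 6 libraries, assigned to groups by their titles. Per the submitters' processing notes, CASAVA and HISAT2 2.0.5 were used with hg38, and the read counter and annotation are not given in the sources used here. Coordinates and exon lengths of the members in the table equal those of GENCODE for 10 of 10. The authors' deposited values are a signal, the reads of a gene over a size factor of its library, in a table named as raw. In every library 100% of nonzero values were whole multiples, within 0.001, of 1 step (0.8404 to 1.129), so whole reads were recovered. The steps of vector replicate 1 (1.009) and nPD-L1 replicate 2 (1.011) lie close to 1. The deposited fold changes and p values were not used.

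limma 3.58.1 (R 4.3.3) was run on log2(value + 1) with trend and robust moderation, on the 15076 genes that reached 10 scaled reads in 3 or more libraries, and called 748. On recovered reads, edgeR 4.0.16 called 760 genes and DESeq2 1.42.0 called 960, as alternatives. Scripts were tested on simulated data. Depth of 17427519 to 22253295 reads leaves counting error small above 100 reads. The members, lists and tests were chosen with earlier results of these data known. All members are named. In the lists, up to 4 called genes by size of fold change are named, and others where said, and for each called member the 3 genes of most like profile. Alternatives were other scalings, filters, pseudocounts, moderation, thresholds, a replicate block and libraries left out. Fits on 4 libraries and removal of a length trend were added after the data were seen. Protein sequences were not used here.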

Additional observations from a re-analysis of the deposited data

How the results depend on the processing

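2 members were called with all 6 libraries. The count was 1 to 3 when libraries were left out (all genes 408 to 1033, pathway genes 9 to 14), with 1 without vector replicate 1 or nPD-L1 replicate 1, 2 or 3, and 3 without vector replicate 3. It was 0 with edgeR, with DESeq2 and with limma on the 4 libraries whose step lies farther from 1, chosen after seeing the data, where all genes called were 253, 394 and 281, and pathway genes were 7, 8 and 7. There NFATC1 kept its direction with an adjusted p of 0.172 to 0.18, and NFATC2 one of 0.318 to 0.507. At least 2-fold left 0 members, 374 genes and 7 pathway genes, and an unadjusted p under 0.05 gave 2146 genes and 23 pathway genes. NFATC1 was called in 17 of 20 alternatives, NFATC2 in 13, RCAN1 in 4 (no filter, block, DESeq2 on 6 libraries and without vector replicate 3) and NFAT5 in 1 (block).

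Samples with the same replicate number deviated from their group means with correlations of -0.01, 0.23 and 0.13. These values do not settle whether the numbers pair the samples. Replicate 2 was the lowest library of each group for NFATC3 and NFAT5, while for NFATC2 and RCAN3 this held in vector only. With the replicate number as a block, 4 members were called (3 higher, 1 lower), adding NFAT5 (adjusted p = 0.0406) and RCAN1 (adjusted p = 0.00983, limma), and 1185 genes in all. The summed catalytic subunits differed by 0.13 under the block, and by 0.07 to 0.20 with libraries left out.

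Some fold changes near 0 turned negative. PPP3CB was -0.03 in the 3 fits on 4 libraries and -0.0036 with the length trend removed. PPP3R1 was -0.02 under upper-quartile factors and without vector replicate 1, and -0.04 in the 3 fits on 4 libraries, and with libraries left out it ran from -0.02 to 0.09. RCAN3 was -0.03 under upper-quartile factors, -0.03 (edgeR, limma) and -0.04 (DESeq2) on 4 libraries, -0.07 with the length trend removed, and -0.08 to 0.13 with libraries left out. The causes were not tested. Upper-quartile factors moved the median of all genes by -0.051. Depth limited NFATC4, at 2 to 15 reads per library.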

Other observations

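The NF-κB proteins share the Rel homology fold with the NFAT factors, and their 5 genes were read after the members' values were seen. NFKB1, which encodes p105 and p50, rose from 1105, 1269 and 1105 scaled reads in vector to 1576, 1684 and 1608 in nPD-L1 (log2 fold change 0.49, SE 0.10, adjusted p = 0.0166, limma), with no overlap between groups. RELA did not pass the test, at 2042, 1891 and 1980 in vector and 2574, 2366 and 2198 in nPD-L1 (log2 fold change 0.27, adjusted p = 0.21), although its groups did not overlap. Of all genes tested, 12.0% did not overlap upward. RELB (log2 fold change -0.16, adjusted p = 0.71), NFKB2 (-0.04, 0.899) and REL (0.21, 0.82, limma) did not pass the test either. REL was lowest in vector replicate 2, at 66.6 scaled reads, against 142 and 200 in the other vector libraries.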
